A study of Mus musculus with 12 samples.

Results

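Nfat5, the gene of the osmosensitive transcription factor TonEBP, and 8 genes of osmolyte, ion, amino acid and water handling were described in the intervertebral disc of ageing mice. They were Nfat5, Slc6a12, Slc6a6, Slc12a2, Slc38a2, Hspa4l, Aqp1, Aqp3 and Aqp5, taken as the probe sets that the array's gene table names with these symbols. All 9 were found, each with 1 probe set, among 19505 genes that had a probe set with 1 symbol. RNA was measured on 12 arrays in 4 groups of 3: nucleus pulposus (NP) of TonEBP +/- mice, NP of wild-type (WT) mice, annulus fibrosus (AF) of TonEBP +/- mice and AF of WT mice. All mice were 12 months old, had a C57BL/6 background and were untreated, and the tissue came from lumbar discs L1 to S1, pooled within 1 animal for each sample. The TonEBP +/- mice are haploinsufficient for TonEBP in the whole animal, per the labels, and so keep a working copy of the gene in every cell. Sex, and which part of Nfat5 was disrupted, are not given in the sources used here.

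The NP is the gel-like core of the disc and the AF its fibrous ring. The fixed negative charges of NP proteoglycans draw cations and water into the tissue, so that its cells live in a hyperosmotic surrounding that shifts with every loading cycle. Cells under such stress first take up inorganic ions, then replace them with organic osmolytes such as betaine, taurine and neutral amino acids. TonEBP drives the carriers of these osmolytes and chaperones by binding the TonE motif in their control regions, and aquaporins let water follow.

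The promoter of Slc6a12, the betaine and GABA carrier, is shown because of the 7 genes with a promoter window used here it alone held the core of the TonE motif. That of Aqp1 is shown beside it because its signal lay the opposite way between the tissues. Both are RefSeq windows of build GRCm38.p6, from 250 bases before to 50 bases after the transcript start, 5′ to 3′ on the plus strand. Capitals mark a match to the TonE motif.
Slc6a12, chr6:121342324-121342623: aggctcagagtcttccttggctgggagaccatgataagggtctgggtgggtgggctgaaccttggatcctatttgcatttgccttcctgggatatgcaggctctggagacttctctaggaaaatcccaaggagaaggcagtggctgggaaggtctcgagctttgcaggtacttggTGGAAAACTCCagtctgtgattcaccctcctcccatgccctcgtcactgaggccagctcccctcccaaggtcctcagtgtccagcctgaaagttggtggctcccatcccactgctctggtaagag
Aqp1, chr6:55336049-55336348: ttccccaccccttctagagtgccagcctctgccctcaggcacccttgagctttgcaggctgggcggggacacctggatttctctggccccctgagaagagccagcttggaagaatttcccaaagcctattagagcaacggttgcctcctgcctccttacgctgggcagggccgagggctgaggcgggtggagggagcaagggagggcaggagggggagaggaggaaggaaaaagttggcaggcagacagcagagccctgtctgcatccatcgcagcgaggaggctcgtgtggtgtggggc
In the Slc6a12 window the match, TGGAAAACTCC, began 75 bases before the start and lay on the strand of the gene. RefSeq windows were used for 7 of the 9 genes, all but Slc6a6 and Slc12a2. Any window on the chromosome of Slc12a2 was left out. Of the 11 windows used, 5 belonged to alternative starts of Slc6a12. The core TGGAAA was searched on both strands, and every match to TonE contains it. It was in 0 of the 6 other genes with a window used here. Of the mouse genes searched, 23.9% of 27025 held it, as did 21.4% of the 32851 mouse windows. With 6 genes, a count of 0 does not set them apart. The whole TonE motif was in 4.96% of these mouse windows and 5.74% of these mouse genes. These are matches of letters within short windows, and binding was not measured.

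Values are the authors' deposited log2 signals, 1 per probe set and array, and levels of different genes are not set against each other. The deposited scale runs to 19.93 log2, above the 16 that the brightness of a 16-bit scan can reach. How it was made beyond RMA is not given in the sources used here, so folds are those of this scale. The background level of an array was taken as percentile 95 of its background control probe sets, and a signal over that level counts as above background. The level was 7.11 to 7.33 log2 in NP and 7.73 to 7.98 log2 in AF. For a group with no array over that level, the fold is given as a bound, computed with the level in place of the group's signals. Where that leaves no fold above 1, no size is given for genes outside the 9. NP and AF arrays differed in their medians, 6.82 to 6.87 log2 in NP and 7.43 to 7.64 log2 in AF, so NP was compared with AF after each array's median was subtracted. As deposited, the median difference of NP from AF over all transcript clusters was -0.746 log2 in TonEBP +/- mice and -0.837 log2 in WT mice. Of the 9 listed NP and notochord markers measured, Foxa2 and Car12 were above background on no NP array, and Tnmd, Scx and Mkx of the 7 AF and tendon markers on no AF array. AF also held RNA of marrow and bone. All 8 listed neutrophil markers were above background on every AF array, and their mean was 17.4 to 18.1 log2 in AF of TonEBP +/- mice, against 16.4 to 16.9 log2 in AF of WT mice. The means of the 5 osteoblast markers there were 11.2 to 11.8 log2 and 8.79 to 10.3 log2. In NP, all 8 neutrophil markers were above background on every array of WT mice, with a mean of 11.9 to 13.5 log2. In NP of TonEBP +/- mice 6 of them were above it on every array, with a mean of 9.37 to 11.2 log2. AF array 1 of WT mice was the highest AF array for the NP markers Krt19 (11.37 log2, against 8.26 and 8.27 log2 on the other WT arrays) and Krt8 (10.34 log2, against 7.98 and 8.29 log2).

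**Figure D1:**
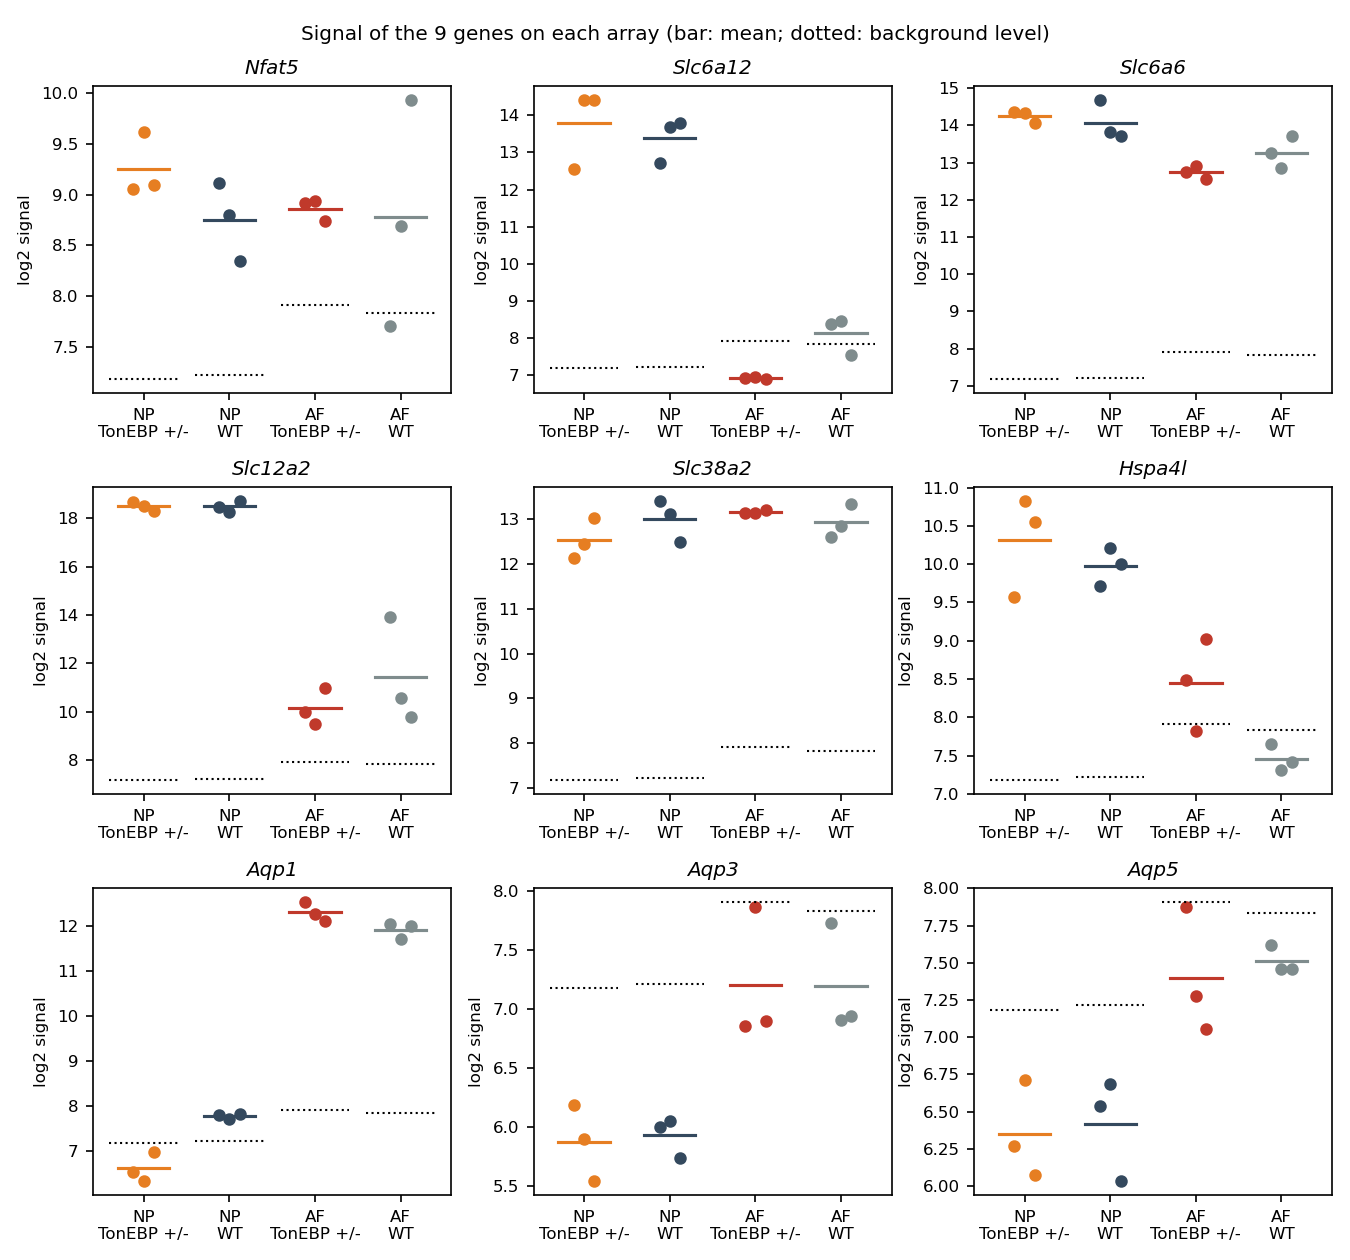
Log2 signal (vertical axes) of the 9 genes on each of 12 arrays, by group, with bars for group means and dotted lines for the mean background level of each group. Slc12a2, Slc6a12 and Hspa4l lie higher in NP and Aqp1 lower, while Aqp3 and Aqp5 lie below the dotted lines on all 12 arrays.

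NP and AF differed far more than the genotypes did. In both genotypes Slc12a2, Slc6a12, Slc6a6 and Hspa4l were higher in NP than in AF and Aqp1 was lower. In TonEBP +/- mice 6 of the 9 genes passed the test, 5 higher and 1 lower, where 56.2% of all clusters were called (30.9% higher, 25.3% lower). In WT mice it was again 6 of 9, 5 higher and 1 lower, where 65% were called (33.7% higher, 31.3% lower). The arrays of the tissues did not overlap for 5 genes higher and 1 lower in TonEBP +/- mice, where 60.4% of all clusters did not (32.1% higher, 28.2% lower). In WT mice they did not overlap for 4 higher and 3 lower, where 71.6% did not (36.1% higher, 35.5% lower). As deposited, 4 of the 9 genes were called higher and 3 lower in each genotype, where 20% of all clusters were higher and 54.4% lower in TonEBP +/- mice, and 22.2% and 56.1% in WT mice. With quantile normalization it was 4 higher and 2 lower in TonEBP +/- mice, where 24.7% and 24.2% of all clusters were. In WT mice it was then 3 higher and 2 lower, where 27.1% and 27.3% were. The split between higher and lower thus depends on the scaling. Shares of this size in all clusters mean that a call between the tissues does not by itself set these genes apart. With medians subtracted, the median difference of the 9 genes was 1.09 log2 in TonEBP +/- mice and 0.81 log2 in WT mice. Over all clusters it was -0.06 log2 and -0.10 log2. With quantile normalization the middle value of the 9 was 0.39 log2 (Nfat5) in TonEBP +/- mice and -0.03 log2 (Slc6a6) in WT mice. The medians over all clusters were then -0.06 log2 and -0.07 log2, so the shift of the 9 genes depends on the scaling too. By group mean with medians subtracted, the order for Slc6a12, Slc6a6 and Slc12a2 was NP of TonEBP +/- mice, NP of WT mice, AF of WT mice and AF of TonEBP +/- mice, the NP groups overlapping each other. For Hspa4l and Nfat5 the AF groups stood the other way round, and for Aqp1 the order was AF of TonEBP +/- mice, AF of WT mice, NP of WT mice and NP of TonEBP +/- mice. In whole tissue, fewer cells of a type and less RNA per cell cannot be told apart.

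**Figure D2:**
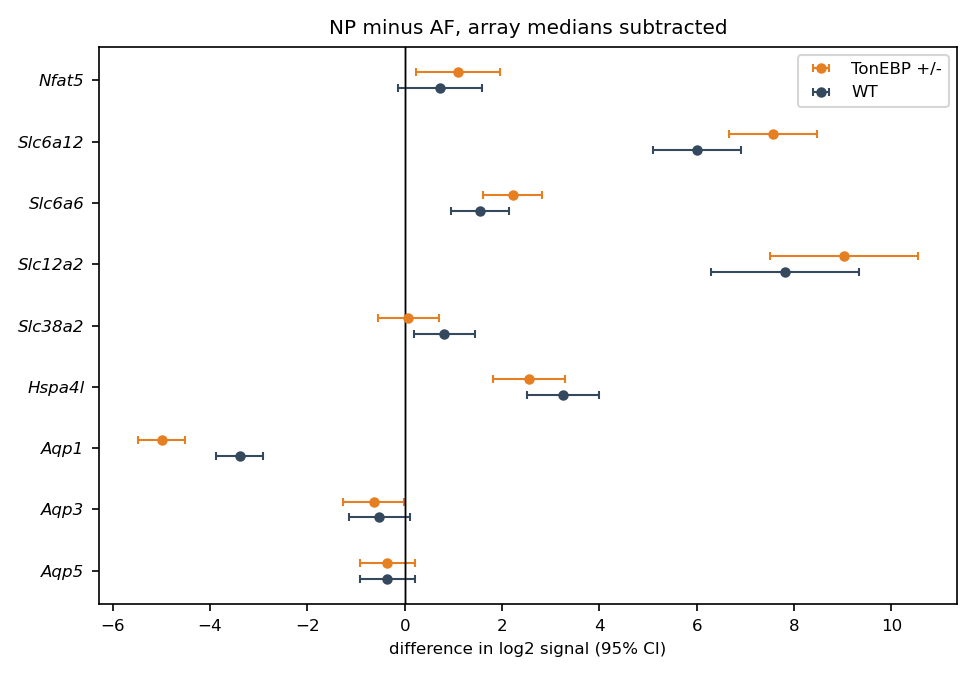
Difference in log2 signal of NP minus AF after subtraction of array medians (horizontal axis), with 95% confidence intervals, for TonEBP +/- mice and WT mice. Slc12a2 stands at 9.03 and 7.81, Slc6a12 at 7.56 and 6.01 and Aqp1 at -4.99 and -3.39, while the intervals of Aqp5 include 0 in both genotypes.

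Nfat5 itself had log2 signals of 9.06, 9.62 and 9.09 in NP of TonEBP +/- mice and 9.12, 8.80 and 8.34 in NP of WT mice. In AF they were 8.91, 8.94 and 8.74 in TonEBP +/- mice and 7.70, 8.69 and 9.93 in WT mice. The genotypes overlapped in both tissues, and AF of WT mice spanned the widest range, with 1 array below background. The difference between TonEBP +/- and WT was 0.50 log2 in NP (95% CI -0.35 to 1.36, adjusted p = 1) and 0.09 log2 in AF (95% CI -0.77 to 0.94, adjusted p = 0.923). No lower signal of the disrupted gene was thus seen. Where its probes lie relative to the disrupted part is not given in the sources used here, so the genotype labels could not be checked with it. Between tissues, Nfat5 was higher in NP of TonEBP +/- mice by 1.09 log2 (SE 0.407, adjusted p = 0.0325), and the WT difference was 0.72 log2 (SE 0.407, adjusted p = 0.131). The call in TonEBP +/- mice was kept in 7 of 12 omissions of 1 array and lost without any of their AF arrays or without their NP arrays 2 or 3 (adjusted p up to 0.116). In WT mice the difference passed the test without AF array 3 (1.31 log2, adjusted p = 0.00296). The call in TonEBP +/- mice was also lost as deposited (0.40 log2, adjusted p = 0.382), with quantile normalization (0.39 log2, adjusted p = 0.534) and with array weights (adjusted p = 0.0614).

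Among the other NFAT family members and regulators of TonEBP, 3 of 10 measured genes were higher and 3 lower in NP of TonEBP +/- mice. In NP of WT mice 4 were higher and 0 lower. Of all clusters, 30.9% were higher and 25.3% lower in TonEBP +/- mice, and 33.7% and 31.3% in WT mice. The counts of higher genes are near these shares and do not set the list apart. Akap13, the anchoring protein Brx that relays the osmotic signal to TonEBP, was higher by 2.47 log2 in both genotypes (SE 0.485, adjusted p = 0.000431 in TonEBP +/- mice and 0.000391 in WT mice). Atm, a kinase that activates TonEBP, was higher by 1.28 log2 in TonEBP +/- mice (SE 0.271) and 1.62 log2 in WT mice (SE 0.271). It was above background on no AF array, so at least 1.62-fold and 1.47-fold higher. Nfatc2, a calcineurin-dependent relative, was at least 1.73-fold higher in TonEBP +/- mice, where it was above background on no AF array, and higher by 0.79 log2 in WT mice. The p38 kinase gene Mapk14 was lower in NP of TonEBP +/- mice (difference -1.09 log2, SE 0.302, adjusted p = 0.00615), and Dhx9, an RNA helicase that binds TonEBP, was higher by 1.58 log2 in NP of WT mice (SE 0.309, adjusted p = 0.000384). The call of Nfatc2 in WT mice was lost as deposited (0.05 log2), and that of Dhx9 with quantile normalization (0.19 log2).

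Slc6a12, the carrier that brings betaine into cells and a textbook TonEBP target, had log2 signals of 12.56, 14.41 and 14.40 in NP of TonEBP +/- mice and 12.70, 13.70 and 13.79 in NP of WT mice. The AF signals were 6.92, 6.94 and 6.89 in TonEBP +/- mice, all below background, and 8.38, 8.45 and 7.54 in WT mice, 2 of 3 above it. Every NP array lay more than 4 log2 above every AF array. NP exceeded AF by 7.56 log2 in TonEBP +/- mice (SE 0.427, adjusted p = 7.4e-10), which as a bound is at least 95.2-fold, and by 6.01 log2 in WT mice (SE 0.427, adjusted p = 1.14e-08, 64.5-fold). In NP the genotypes overlapped, with a difference of 0.40 log2 (95% CI -0.51 to 1.30, adjusted p = 1). In AF they did not, TonEBP +/- lying below WT by -1.21 log2 (SE 0.428), but the adjusted p was 0.101. Against the background level that difference is at least 1.16-fold. It passed the test in 1 of 12 omissions of 1 array, without NP array 1 of TonEBP +/- mice (adjusted p = 0.0419). The mean of the NP and notochord markers was also lower in AF of TonEBP +/- mice, and the part of NP cells in the Slc6a12 difference was not tested.

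Slc6a6, the taurine carrier TauT, had log2 signals of 14.37, 14.34 and 14.08 in NP of TonEBP +/- mice and 14.68, 13.82 and 13.73 in NP of WT mice. AF had signals of 12.75, 12.90 and 12.55 in TonEBP +/- mice and 13.25, 12.85 and 13.71 in WT mice. The tissues did not overlap in either genotype, but in WT mice the lowest NP array and the highest AF array were 13.73 and 13.71. NP was higher by 2.22 log2 in TonEBP +/- mice (SE 0.284, adjusted p = 6.17e-06, 4.65-fold) and by 1.55 log2 in WT mice (SE 0.284, adjusted p = 0.000216, 2.92-fold), and this WT value turned to -0.03 log2 (adjusted p = 0.932) with quantile normalization. Neither genotype difference passed the test, at 0.18 log2 in NP (adjusted p = 1) and -0.54 log2 in AF (adjusted p = 0.272).

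Of the 3 measured relatives of Slc6a12 in the SLC6 family, 1 was higher in NP in each genotype. Of all clusters, 30.9% were higher in TonEBP +/- mice and 33.7% in WT mice. The gene called higher was Slc6a8, the creatine carrier, at 15.2 to 16.3 log2 in NP of TonEBP +/- mice, against 10.4 to 11.2 log2 in their AF. The difference was 5.66 log2 in TonEBP +/- mice (SE 0.372, adjusted p = 3.96e-09) and 5.62 log2 in WT mice (SE 0.372, adjusted p = 5.21e-09). The GABA carriers Slc6a11 and Slc6a13 were called lower in NP in 1 genotype each, Slc6a11 in TonEBP +/- mice (at least 1.36-fold, with no NP array above background) and Slc6a13 in WT mice (-0.71 log2, SE 0.249). The inositol carrier Slc5a3 and the aldose reductase Akr1b3, which also belong to the osmolyte response, were not analysed here.

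Slc12a2, the Na-K-Cl cotransporter NKCC1 through which shrunken cells take up ions, showed the widest difference between the tissues among the 9 genes. Its log2 signals were 18.68, 18.51 and 18.30 in NP of TonEBP +/- mice and 18.48, 18.27 and 18.72 in NP of WT mice. In AF they were 9.99, 9.51 and 10.98 in TonEBP +/- mice and 13.91, 10.56 and 9.79 in WT mice. The 6 NP arrays thus lay within 1 log2 of each other, while the AF arrays scattered, WT array 1 standing highest. That array was also the highest AF array for Krt19 and Krt8, and the part of NP cells in its Slc12a2 signal was not tested. NP exceeded AF by 9.03 log2 in TonEBP +/- mice (SE 0.715, adjusted p = 3.06e-08, 522-fold) and by 7.81 log2 in WT mice (SE 0.715, adjusted p = 1.85e-07, 224-fold). These ranked 17 and 23 among the rises of all clusters. Without AF array 1 of WT mice the WT difference was 9.06 log2. Genotypes differed by 0.01 log2 in NP (95% CI -1.48 to 1.49, adjusted p = 1) and by -1.26 log2 in AF (SE 0.700, adjusted p = 0.3). Without AF array 1 of WT mice the AF value was -0.02 log2.

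Several other cation chloride cotransporters and the kinases that switch them were also higher in NP. Of 11 measured, 7 were higher and 2 lower in each genotype, where 30.9% of all clusters were higher and 25.3% lower in TonEBP +/- mice, and 33.7% and 31.3% in WT mice. Stk39, the kinase SPAK that phosphorylates NKCC1, was at 14.7 to 14.8 log2 in NP of TonEBP +/- mice, against 9.45 to 10.5 log2 in their AF. Its NP signal exceeded that of AF by 5.39 log2 in TonEBP +/- mice (SE 0.308, adjusted p = 8.41e-10) and by 5.14 log2 in WT mice (SE 0.308, adjusted p = 1.8e-09). Wnk1, the chloride-sensing kinase upstream of SPAK, was higher by 4.66 log2 (SE 0.366, adjusted p = 2.77e-08) in TonEBP +/- mice and 4.16 log2 (SE 0.366, adjusted p = 1.21e-07) in WT mice. Of the K-Cl cotransporters, which carry ions out of cells, Slc12a7 and Slc12a4 were higher as well. Slc12a7 was above background on all NP and no AF arrays, hence at least 11.3-fold higher in TonEBP +/- mice and 12.5-fold in WT mice. Slc12a4 was higher by 3.16 log2 in TonEBP +/- mice (SE 0.255) and 3.27 log2 in WT mice (SE 0.255). Slc12a3 and Wnk3 were called higher, and the K-Cl cotransporter Slc12a5 and Wnk4 lower, but these 4 were above background on no array. As deposited 5 of the 11 were higher and 4 lower in each genotype, with the calls of Slc12a3 and Wnk3 lost.

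**Figure D3:**
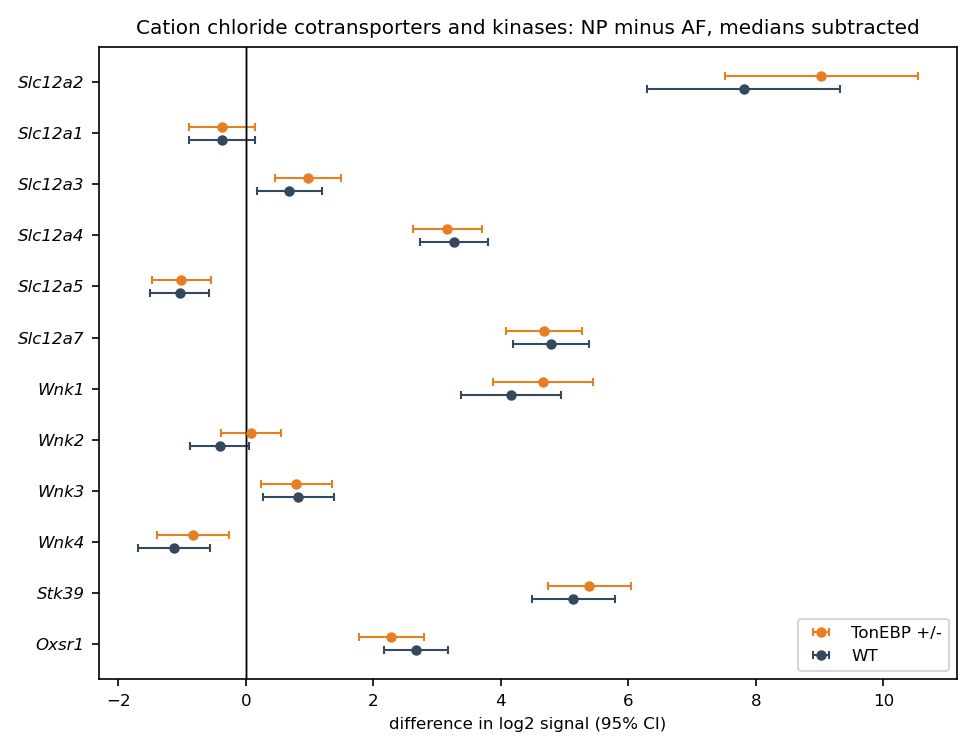
Difference in log2 signal of NP minus AF after subtraction of array medians (horizontal axis), with 95% confidence intervals, for Slc12a2 and 11 related cotransporters and kinases in TonEBP +/- mice and WT mice. Slc12a2, Stk39, Wnk1, Slc12a7, Slc12a4 and Oxsr1 lie well above 0 in both genotypes, and the others lie closer to 0.

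The sodium pump makes the gradient that these carriers use. Of its 3 measured subunits, 2 were higher and 1 lower in NP in each genotype. Of all clusters, 30.9% were higher and 25.3% lower in TonEBP +/- mice, and 33.7% and 31.3% in WT mice. Atp1b3, a beta subunit, was higher by 4.60 log2 in TonEBP +/- mice (SE 0.296, adjusted p = 3.13e-09) and 4.62 log2 in WT mice (SE 0.296, adjusted p = 3.69e-09). Atp1b2 was higher by 1.58 log2 (SE 0.407) in TonEBP +/- mice and 1.38 log2 (SE 0.407) in WT mice, calls that were lost as deposited. Atp1b1 was called lower, with 0 NP arrays and 1 AF array of each genotype above background, so no size is given.

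Slc38a2, the SNAT2 carrier that imports neutral amino acids and is induced by hypertonicity, had log2 signals of 12.14, 12.44 and 13.03 in NP of TonEBP +/- mice and 13.41, 13.13 and 12.48 in NP of WT mice. The AF signals were 13.13, 13.13 and 13.20 in TonEBP +/- mice and 12.59, 12.85 and 13.35 in WT mice. All 4 groups lay within the same range. NP of WT mice was higher by 0.81 log2 (SE 0.295, adjusted p = 0.0242), but the groups overlapped, the call was kept in 8 of 12 omissions of 1 array (lost without AF or NP arrays 1 or 2 of WT mice), and the value was 0.07 log2 as deposited and -0.79 log2 (adjusted p = 0.0354) with quantile normalization. In TonEBP +/- mice the difference was 0.07 log2 (adjusted p = 0.853), -0.62 log2 as deposited and -1.31 log2 (adjusted p = 0.00203) with quantile normalization. The direction between the tissues thus depends on the scaling of the arrays. Neither genotype difference passed the test (-0.47 log2 in NP, adjusted p = 1, and 0.22 log2 in AF, adjusted p = 0.692).

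Of the 10 other SLC38 carriers, 6 were higher and 4 lower in NP in each genotype, beside 30.9% higher and 25.3% lower of all clusters in TonEBP +/- mice and 33.7% and 31.3% in WT mice. Slc38a8 and Slc38a11, of the 4 lower, were above background on no array. Slc38a1, the close relative SNAT1, was at 16.1 to 16.2 log2 in NP of TonEBP +/- mice, against 10.7 to 11.8 log2 in their AF, and higher by 5.78 log2 (SE 0.331, adjusted p = 8.62e-10). In WT mice it was higher by 5.45 log2 (SE 0.331, adjusted p = 2.06e-09). Slc38a4 was above background on all NP and no AF arrays and at least 15.8-fold higher in TonEBP +/- mice and 13.7-fold in WT mice. Slc38a6 was higher by 3.49 log2 in both genotypes (SE 0.323). Slc38a5 was lower, with differences of -3.61 log2 in TonEBP +/- mice (SE 0.307, adjusted p = 6.66e-08) and -2.37 log2 in WT mice (SE 0.307, adjusted p = 8.1e-06). In TonEBP +/- mice, quantile normalization turned the difference of Slc38a9 to -0.01 log2, against 1.06 log2 with medians subtracted, and no other called gene of this list changed direction in the 2 other scalings tried.

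Hspa4l, the HSP110-type chaperone also called Osp94 after its induction by osmotic stress, had log2 signals of 9.57, 10.83 and 10.56 in NP of TonEBP +/- mice and 9.72, 10.21 and 10.00 in NP of WT mice. AF had signals of 8.49, 7.81 and 9.03 in TonEBP +/- mice, 2 of 3 above background, and 7.66, 7.31 and 7.41 in WT mice, none above it. NP was higher by 2.56 log2 in TonEBP +/- mice (SE 0.349, adjusted p = 1.21e-05, 5.90-fold). In WT mice the difference was 3.25 log2 (SE 0.349, adjusted p = 1.06e-06), and NP was at least 7.37-fold higher. The genotypes overlapped in NP (0.34 log2, adjusted p = 1). In AF, TonEBP +/- lay above WT without overlap, by 0.98 log2 (SE 0.334), but with an adjusted p of 0.0888. As a bound that is at least 1.53-fold. It passed the test with quantile normalization (1.23 log2, adjusted p = 0.0402) and without AF array 2 of TonEBP +/- mice (1.30 log2, adjusted p = 0.0156).

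The other HSP110 chaperones were higher in NP by smaller amounts, 2 of 2 in each genotype. Beside this and the counts below, 30.9% of all clusters were higher and 25.3% lower in TonEBP +/- mice. In WT mice these shares were 33.7% and 31.3%. Hsph1 was higher by 1.67 log2 in TonEBP +/- mice (SE 0.270) and 1.57 log2 in WT mice (SE 0.270). Hspa4 was higher by 1.30 log2 (SE 0.258) and 1.44 log2 (SE 0.258) in these genotypes, but with quantile normalization turned to -0.16 log2 and -0.19 log2. Of 6 measured further osmoprotective genes and TonEBP targets, 3 were higher and 2 lower in NP of TonEBP +/- mice and 4 were higher and 1 lower in NP of WT mice. Slc14a2, of these 6, was above background on no array. Sgk1, a kinase that hypertonicity induces, differed most among the 6, by 4.10 log2 in TonEBP +/- mice (SE 0.452, adjusted p = 1.19e-06) and 4.32 log2 in WT mice (SE 0.452, adjusted p = 7.94e-07). B3gat3, the enzyme that completes the linker of glycosaminoglycan chains, was at least 2.97-fold and 3.74-fold higher. The near-identical Hsp70 genes Hspa1a and Hspa1b, which probes may not separate, went opposite ways. Hspa1a was higher in NP of WT mice (1.57 log2, SE 0.335) and Hspa1b lower in NP of TonEBP +/- mice (-1.41 log2, SE 0.288). Of 5 proinflammatory genes that TonEBP binds in immune cells, 1 was higher and 3 lower in NP in each genotype, all of them above background on 0 arrays of at least 1 tissue. Tnf, a cytokine gene, was called lower but was above background on no NP array and 1 AF array of each genotype, so no size is given.

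Aqp1, the water channel of red cell membranes, capillary endothelium and other cells, was the 1 gene of the 9 that was clearly lower in NP. Its log2 signals were 6.53, 6.33 and 6.97 in NP of TonEBP +/- mice, none above background, and 7.80, 7.72 and 7.82 in NP of WT mice, all above it. In AF they were 12.53, 12.26 and 12.10 in TonEBP +/- mice and 12.04, 11.70 and 11.99 in WT mice. No 2 of the 4 groups overlapped. NP was lower than AF, with a difference of -4.99 log2 in TonEBP +/- mice (SE 0.228, adjusted p = 7.45e-11), at least 21.5-fold, and -3.39 log2 in WT mice (SE 0.228, adjusted p = 5.94e-09, 10.5-fold). Both calls were kept in all 12 omissions of 1 array and all 6 other alternatives. Beside them, all 6 measured erythroid, all 8 endothelial and all 8 neutrophil markers were lower in NP in both genotypes. So were all 5 osteoblast markers and 4 of 5 macrophage markers, with 1 macrophage marker called higher. Of all clusters, 25.3% were lower in TonEBP +/- mice and 31.3% in WT mice. The endothelial markers were above background on no NP array.

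Aqp3 and Aqp5, a glycerol-permeable and a secretory-gland water channel that have been studied in the NP, were near the limit of the arrays. Aqp3 ran from 5.54 to 6.19 log2 in NP of TonEBP +/- mice and 5.74 to 6.05 log2 in NP of WT mice. In AF it ran from 6.85 to 7.86 log2 in TonEBP +/- mice and 6.91 to 7.73 log2 in WT mice, and it was above background on 1 of the 12 arrays. Aqp5 was above background on 0 of 12, with 6.07 to 6.71 log2 in NP of TonEBP +/- mice, 6.03 to 6.68 log2 in NP of WT mice, 7.05 to 7.88 log2 in AF of TonEBP +/- mice and 7.46 to 7.62 log2 in AF of WT mice. Neither passed the test in any of the 5 comparisons, and no fold is given for either. As deposited, without subtraction of medians, both would pass as lower in NP, where all their signals were below background, Aqp3 by -1.33 log2 in TonEBP +/- mice (adjusted p = 0.00109) and -1.26 log2 in WT mice (adjusted p = 0.00136), and Aqp5 by -1.05 log2 (adjusted p = 0.00226) and -1.09 log2 (adjusted p = 0.00146). Of the 9 other aquaporins, 0 were higher in NP, while 6 were lower in TonEBP +/- mice and 7 in WT mice. Of all clusters, 25.3% were lower in TonEBP +/- mice and 31.3% in WT mice. None of the 9 was above background on an NP array, and Aqp2, Aqp4 and Aqp8 were above it on no AF array either. Aqp9, a glycerol and urea channel, was above background on 3 AF arrays of TonEBP +/- mice and 2 of WT mice, and was at least 2.23-fold and 1.38-fold lower in NP.

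The genotype comparison asks which of these genes differ when a copy of the TonEBP gene is lost, and none of the 9 passed it in either tissue. In NP 0 of 9 passed the test, where 0.113% of all clusters were called, and 1 had an unadjusted p under 0.05, where 3.72% did. In AF it was 0 of 9, where 6.07% were called, and 2 (Slc6a12 and Hspa4l) had an unadjusted p under 0.05, where 23.2% did. Groups did not overlap for 1 of 9 genes in NP, which was lower, where 11.3% of clusters did not overlap (5.34% higher, 5.93% lower). In AF they did not overlap for 2 higher and 1 lower of 9, where 22.3% of clusters did not (10% higher, 12.3% lower). The median difference of the 9 genes was 0.01 log2 in both tissues, against 0.01 log2 in NP and -0.04 log2 in AF over all clusters. Of the established TonEBP targets Slc6a12, Slc6a6, Slc38a2 and Hspa4l, Slc6a12 lay lower and Hspa4l higher in AF of TonEBP +/- mice without overlap. In NP, the genotypes overlapped for all of these targets. The mean of the 9 measured NP and notochord markers also differed between the AF groups. It was 8.87 to 9.18 log2 in TonEBP +/- mice and 9.34 to 10.6 log2 in WT mice. Of these markers, 1 was called lower and 0 higher in AF of TonEBP +/- mice. The part of NP cells in the AF differences was not tested. The 95% intervals of Slc6a12, Slc6a6, Slc38a2 and Hspa4l in NP reached as low as -0.51, -0.41, -1.09 and -0.37 log2, so smaller losses could not be seen with 3 arrays a group.

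**Figure D4:**
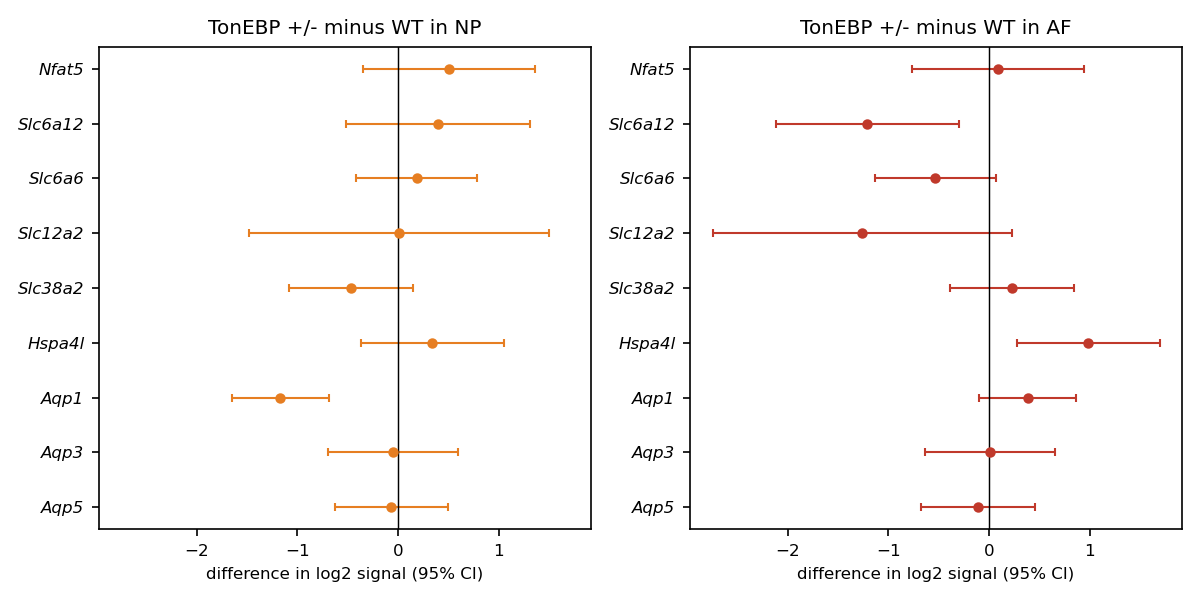
Difference in log2 signal of TonEBP +/- minus WT in NP (left) and AF (right) for the 9 genes (horizontal axes), with 95% confidence intervals. In NP the interval of Aqp1 lies below 0, and in AF those of Slc6a12 (-1.21) and Hspa4l (0.98) exclude 0 before adjustment over all clusters.

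Among the 9 genes, Aqp1 had the lowest adjusted p of the genotype comparison in NP. All 3 TonEBP +/- arrays lay below all 3 WT arrays, with a difference of -1.17 log2 (95% CI -1.65 to -0.68, adjusted p = 0.0656), which as a bound is at least 1.52-fold. In AF the difference was 0.38 log2 (95% CI -0.10 to 0.87, adjusted p = 0.339), with TonEBP +/- above WT on all arrays. The genotype difference thus ran opposite ways in the tissues, and the interaction was -1.55 log2 (95% CI -2.23 to -0.87, adjusted p = 0.0353). It was the 1 of 9 genes that passed this test, where 0.887% of all clusters were called, 0.766% in this direction. Slc6a12 (1.60 log2, SE 0.606, adjusted p = 0.227) was the other of 2 genes with an unadjusted p under 0.05, where 14% of clusters had one. With the NP difference at its bound the interaction is -0.98 log2. The call was kept in 4 of 12 omissions of 1 array, with adjusted p of 0.0172 to 0.11 over the 12. It was lost without AF WT arrays 2 or 3, AF TonEBP +/- array 1, any NP WT array, or NP TonEBP +/- arrays 1 or 2, and with quantile normalization (-1.15 log2, adjusted p = 0.121). The NP difference alone passed with array weights (adjusted p = 0.0143) and had an adjusted p of 0.193 from the NP arrays alone.

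Markers of blood and marrow had lower means in NP of TonEBP +/- mice, where Aqp1 was also lower. In NP the mean of the 6 measured erythroid markers, of 10 listed, was 6.96 to 7.12 log2 in TonEBP +/- mice, against 8.25 to 9.55 log2 in WT mice. All 6 were lower in TonEBP +/- without overlap, and 2 passed the test: Slc4a1, the red cell anion exchanger, at -3.03 log2 (SE 0.420, adjusted p = 0.0109), and Ermap, a red cell adhesion protein, by at least 1.32-fold (adjusted p = 0.0401). In NP, 5.93% of all clusters were lower without overlap and 0.113% were called in either direction. With medians subtracted, and with quantile normalization, 1 of the 6 erythroid markers was called. Of the 6, 3 were above background on no NP array of TonEBP +/- mice, Ermap among them. The mean of the 8 neutrophil markers was 9.37 to 11.2 log2 in NP of TonEBP +/- mice, against 11.9 to 13.5 log2 in NP of WT mice, with Elane and Mpo called lower (-3.21 and -3.33 log2). In AF, where Aqp1 was not lower in TonEBP +/- mice, the erythroid mean was 11.5 to 12.4 log2 in these mice. It was 12.0 to 12.1 log2 in AF of WT mice, with 0 of 6 called. The neutrophil mean was 17.4 to 18.1 log2 in AF of TonEBP +/- mice, against 16.4 to 16.9 log2 in AF of WT mice. All 8 neutrophil markers were higher there without overlap, where 10% of all clusters were. Of the 8, 2 were called higher, where 6.07% of all clusters were called. Endothelial markers were above background on 0 NP arrays, for 8 of 8. In AF their mean was 8.14 to 9.04 log2 in TonEBP +/- mice, against 7.62 to 8.07 log2 in WT mice, with Kdr and Plvap called higher, by at least 2.71-fold and 1.75-fold, and above background on no AF array of WT mice. The part of these cells in the Aqp1 difference was not tested.

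**Figure D5:**
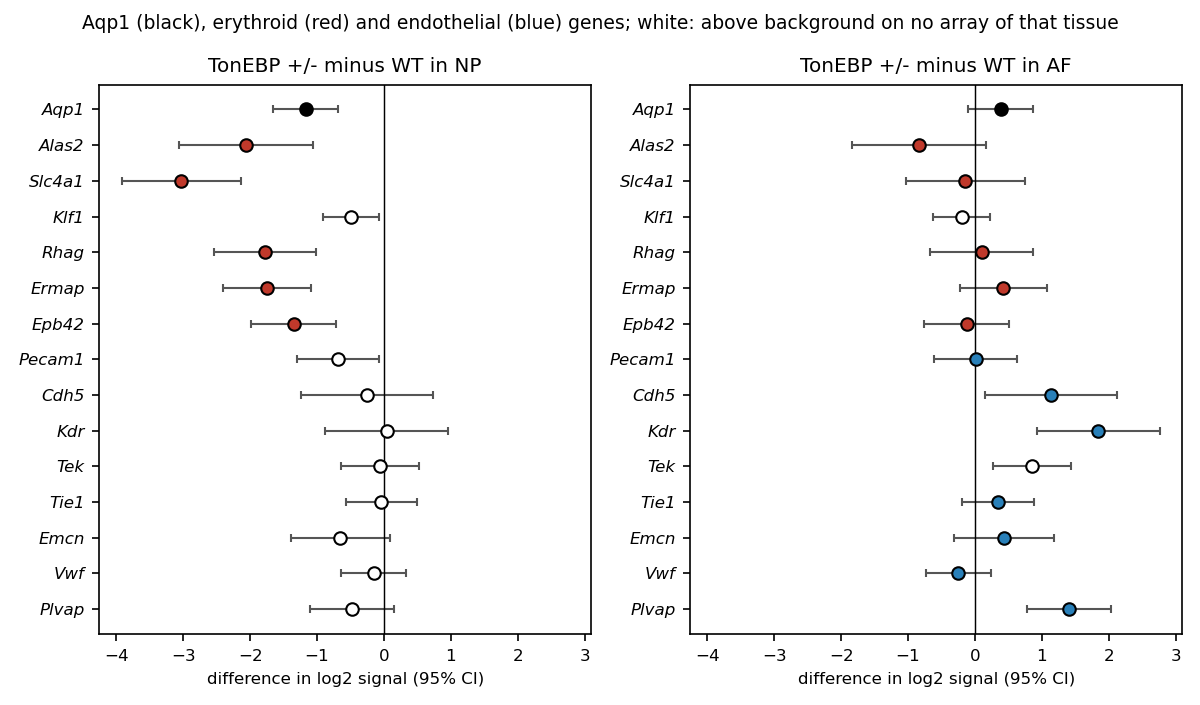
Difference in log2 signal of TonEBP +/- minus WT (horizontal axes) in NP (left) and AF (right), with 95% confidence intervals, for Aqp1 and the measured erythroid and endothelial markers. In NP Aqp1 (-1.17) and the erythroid markers lie below 0 together, and white points mark genes above background on no array of the tissue.

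Few genes of the wider pathway lists passed the genotype tests. Of the 59 measured genes in 9 lists (osmoprotective genes, proinflammatory targets, NFAT family and regulators, aquaporins, SLC6, SLC38, cotransporters and kinases, HSP110 chaperones and sodium pump), 0 passed in NP and 1 in AF, where 0.113% and 6.07% of all clusters did. The gene was Dhx9, higher in AF of TonEBP +/- mice by 1.21 log2 (SE 0.295, adjusted p = 0.0289). In the interaction 0 of the 59 passed, where 0.887% of all clusters did. Counts of 0 there and in NP are near these shares and do not set the genes apart.

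The genes whose signal ran most like that of each member were sought across the 12 arrays. Correlations are Pearson's r of values minus array medians over 12 arrays, which share 4 groups and 2 tissues, and are given as a description. Closest to Slc12a2 were Tmem255a (0.998), Pde1a (0.998) and Palld (0.997), and closest to Slc6a12 were Tafa5 (0.995), Ak4 (0.995) and Cobl (0.995). Of 10692 clusters, 1291 exceeded 0.95 for Slc12a2, 1416 for Slc6a12, 1179 for Hspa4l, 338 for Aqp1 and 235 for Slc6a6. Such values thus single out no gene. Hspa4l ran most like Crls1 (0.993), Ndufa13 (0.990) and Usp19 (0.989), and Slc6a6 most like Csgalnact1 (0.981), Arhgef17 (0.979) and Fbxo21 (0.979). Aqp1 ran most like Hemgn (0.991), Cebpa (0.990) and Uhrf1 (0.989). Nfat5 and Slc38a2 had no cluster above 0.95, with Prdm4 (0.916), Cep97 (0.902) and Adamts12 (0.893) nearest to Nfat5 and Rnf126 (0.841), Tmem129 (0.829) and Whamm (0.824) nearest to Slc38a2.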

How the data were processed

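RNA of 12 samples, 3 per genotype and tissue, was hybridised to Clariom S mouse arrays. The labels call each sample tissue of a single animal. The deposited values are log2 signals, which per the submitters' processing notes came from Affymetrix Expression Console with RMA. Versions, settings and which arrays were normalized together are not given in the sources used here. Of 28846 probe sets, 22206 transcript clusters were tested and 6640 control probe sets left out, 23 of which set the background level. The precision is limited by 3 arrays a group.

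A mean per group was fitted to all 12 arrays with limma 3.58.1 in R 4.3.3 (eBayes without trend, 8 residual degrees of freedom), and p-values were adjusted by Benjamini-Hochberg over all clusters, with a threshold of 0.05. The fit was tested on simulated arrays with planted changes, of which it called all of the largest and fewer of the smaller ones. Genotypes and the interaction were tested on deposited values, and NP against AF on values minus array medians. The spread shared by all groups lies between that of AF (median residual SD 0.362 log2) and NP (0.263 log2), so AF p-values are somewhat too small. Where a gene has several probe sets the one with the highest mean was to be used. The text names all 9 members, and counts every pathway list with its called genes of largest difference. The members and lists were chosen with earlier results of these data known. Alternatives were other scalings, an intensity trend, array weights, a filter on background, fits within a tissue or genotype, and leaving out each array. Sequences are from RefSeq.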

Additional observations from a re-analysis of the deposited data

Results flagged for a closer look

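The genotype difference of Aqp1, the water channel of red cells and capillaries, differed between the tissues by a test of the difference itself. The interaction was -1.55 log2 (95% CI -2.23 to -0.87, limma adjusted p = 0.0353), made of -1.17 log2 in NP and 0.38 log2 in AF. It was kept in 4 of 12 omissions of 1 array and lost with quantile normalization (-1.15 log2, adjusted p = 0.121). In NP of TonEBP +/- mice Aqp1 was below background on all 3 arrays. The erythroid markers were lower in the same arrays, at a mean of 6.96 to 7.12 log2 in TonEBP +/- mice, against 8.25 to 9.55 log2 in WT mice. The part of blood cells in the difference was not tested.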

How the results depend on the processing

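In both genotypes Slc12a2, Slc6a12 and Hspa4l stayed called higher and Aqp1 lower in NP under all 6 alternatives and all 12 omissions of 1 array. No paired analysis was possible because the titles number the 12 arrays without tying an AF and an NP sample to 1 mouse. Every member had 1 probe set, so no other could be tried. With quantile normalization 1 member was called in AF (Hspa4l) and 0 in the interaction, and with array weights 1 was called in NP (Aqp1). Clusters called by genotype in AF were 1347, against 171 with array weights and 3 from the AF arrays alone. In NP they were 25, against 13 with medians subtracted, 84 with array weights and 0 from the NP arrays alone. Between tissues of WT mice 14423 were called, against 9611 when only clusters above background were tested, which are fewer. The tissue difference of Slc38a2 turned to -0.62 log2 as deposited and -1.31 log2 with quantile normalization in TonEBP +/- mice, and to -0.79 log2 with quantile normalization in WT mice. In WT mice Nfat5 turned to -0.022 log2 as deposited and Slc6a6 to -0.034 log2 with quantile normalization. The interaction of Aqp5, below background, turned to -0.0064 log2 with medians subtracted and -0.013 log2 with quantile normalization. The causes were not tested.

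Over the 12 omissions, 0 to 1 members were called in AF, 0 in NP and 0 to 1 in the interaction. Clusters called ran from 81 (without AF TonEBP +/- array 3) to 4029 (without AF TonEBP +/- array 2) in AF, from 2 (without NP TonEBP +/- array 2) to 79 (without NP WT array 3) in NP and from 22 (without NP WT array 2) to 1319 (without AF TonEBP +/- array 2) in the interaction. Uncalled members crossed 0. In AF the genotype difference ran from -0.45 to 0.67 log2 for Nfat5, -0.32 to 0.28 log2 for Aqp3 and -0.35 to 0.063 log2 for Aqp5. In NP it ran from -0.21 to 0.11 log2 for Aqp3, -0.26 to 0.070 log2 for Aqp5 and -0.10 to 0.12 log2 for Slc12a2. The interaction ran from -0.16 to 0.95 log2 for Nfat5, -0.33 to 0.27 log2 for Aqp3 and -0.15 to 0.28 log2 for Aqp5. Slc38a2 ran from -0.18 to 0.27 log2 between tissues of TonEBP +/- mice.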
